A study of Mus musculus with 17 samples.

Results

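The contractile genes of the myoepithelial cell were followed through RNA-seq of mouse lacrimal gland and of organoids grown from it. The 10 members were chosen by name: Acta2, Actg2, Mylk, Myh11, Cnn1, Tagln, Tpm1, Tpm2, Myl9 and Smtn. All 10 were found in both deposited count tables, among 38293 genes in the table of uncloned cultures and 55487 in the table of clones. The organoids are small epithelial structures cultured within basement membrane extract.

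The libraries numbered 17, in 7 groups. Uncloned wild-type organoids in differentiation medium (DM), uncloned wild-type organoids in expansion medium (EM) and wild-type lacrimal gland tissue had 3 libraries each, from lines labelled 6, 7 and 8. Clonal organoids labelled Pax6-KO in DM, Pax6-KO in EM, wild type (WT) in DM and WT in EM had 2 libraries each. Each library was 1 of 2 clones, so a genotype label rests on a pair of clones. Per the growth protocol, DM cultures spent 2 days in EM and then 5 days in DM, and EM cultures spent 7 days in EM. The series text gives 7 days in each medium for the clones, so the clones' time in DM is uncertain. Neither the composition of the media nor the age, sex and strain of the animals is given in the sources used here. Nothing in the labels tells whether lines 6, 7 and 8 are separate animals, and p-values measure the spread between these libraries.

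Myoepithelial cells are basal epithelial cells that wrap the secretory units of exocrine glands and squeeze them, and in the lacrimal gland they help to expel tears. They do so with the filaments of smooth muscle: actin filaments clad with tropomyosin and calponin slide along a smooth muscle type myosin. Contraction starts when calcium activates myosin light chain kinase, which phosphorylates the regulatory light chain. Serum response factor and its partners of the myocardin family bind CArG boxes near many of these genes, and vascular smooth muscle and pericytes use the same genes.

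Total counts per library lay between 12801473 and 19207469 for the uncloned cultures and gland, and between 18282059 and 22500534 for the clones. The 10 members together took 0.2% to 0.224% of all counts in uncloned DM, 0.101% to 0.117% in uncloned EM and 0.0191% to 0.0202% in the gland. In the gland, the 10 most abundant genes of a library held 65.5% to 67.6% of its counts, against 5.96% to 6.72% in uncloned DM and 5.98% to 6.24% in uncloned EM. Levels below are CPM, counts scaled to library size, after adjustment by the trimmed mean of M-values (TMM), which is built to discount such a skew. Levels were scaled within each table and are not comparable between the tables. The gland carried acinar markers that were low in the organoids: Lpo, a peroxidase of tears, stood at 1.23 to 1.82 CPM in uncloned DM, 0.498 to 0.786 CPM in uncloned EM and 3330 to 5100 CPM in the gland. Basal markers were higher in the organoids, with Krt14 at 1560 to 2350 CPM in DM, 612 to 676 CPM in EM and 27.9 to 34.6 CPM in the gland. Pax6 transcript level did not separate the genotype labels. It was 135 and 309 CPM in KO DM, 172 and 272 CPM in KO EM, 219 and 280 CPM in WT DM, and 245 and 276 CPM in WT EM. Its log2 difference, KO minus WT, was -0.17 ± 0.39 in DM (SE, adjusted p = 0.831) and -0.23 ± 0.39 in EM (adjusted p = 0.744). Gene counts cannot show whether the transcript was cut or frameshifted, so these clones are called by their label.

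Sequences next to 2 members are shown because those members rose with DM in the uncloned cultures and because their windows hold CArG boxes. Of the 10 members, 7 have an entry in the RefSeq table of gene starts (build GRCm38.p6), and the 250 bases before each start were searched on both strands. A CArG box begins with CC and ends with GG, with only A or T between. The exact box was found for Myl9 alone among the 7, and in 1.47% of 32851 windows of the same length. With 1 C or G allowed in its middle, a setting chosen after the exact search had been seen, Acta2 and Myl9 held 2 boxes each, and 8.59% of all windows held at least 1. MCAT, spelled CATTCC and also chosen after the data had been seen, was in the windows of Acta2, Mylk, Tpm1 and Smtn, and in 12.6% of all windows. In the lines below, capitals mark the CArG boxes. The Acta2 stretches are on the minus strand at chr19:34255438-34255467 and chr19:34255388-34255417. They lie before the RefSeq start, but inside the span of the Acta2 gene in GENCODE M21, which begins farther upstream. The Myl9 stretch is chr2:156775214-156775419 on the plus strand and ends just before the first exon.
Acta2 site 1: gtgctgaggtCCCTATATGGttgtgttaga
Acta2 site 2: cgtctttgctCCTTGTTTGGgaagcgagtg
Myl9: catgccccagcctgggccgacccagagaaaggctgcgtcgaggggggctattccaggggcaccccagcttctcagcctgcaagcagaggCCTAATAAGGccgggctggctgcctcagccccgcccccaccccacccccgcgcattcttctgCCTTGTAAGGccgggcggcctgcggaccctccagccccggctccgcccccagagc
The Acta2 boxes begin 84 and 34 bases before the RefSeq start and each departs from the exact box by 1 base. The Myl9 boxes begin 161 and 99 bases before it, and the outer one is exact. A match describes the letters only.

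The change from EM to DM was the first comparison, in uncloned organoids. Most of the smooth muscle genes were near 0 in EM and well above it in DM. A change in the number of contractile cells and a change in RNA per cell cannot be told apart in these bulk libraries. By edgeR's quasi-likelihood test, 9 of the 10 members were higher in DM at an adjusted p under 0.05 and none was lower, where 17.2% of the 13713 genes tested were called higher, 13.2% lower and 30.3% in either direction. The median log2 fold change of the members was 3.44, against 0 over all genes tested. The 10 members fell into 3 kinds. Actins, the kinase, the light chain and Tagln rose by 11-fold to 85-fold, the tropomyosins and Smtn by 1.52-fold to 1.9-fold, and Myh11 and Cnn1 had at most 18 counts in any uncloned organoid library.

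**Figure D1:**
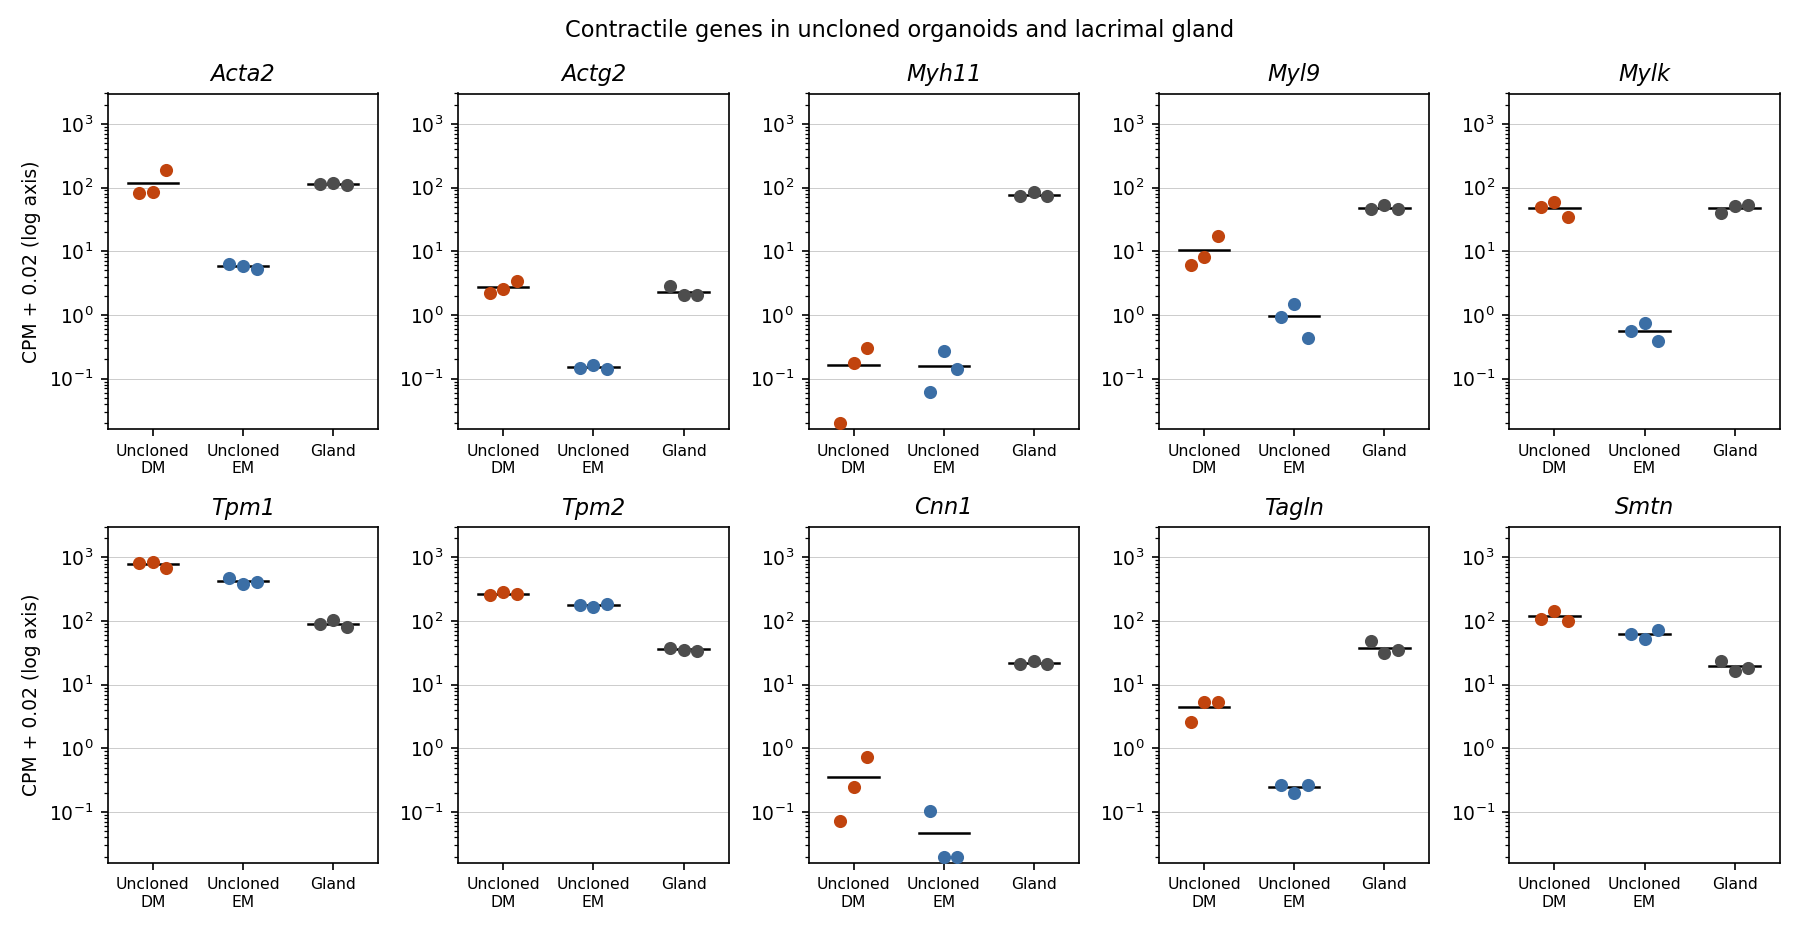
Level of each contractile gene (CPM plus 0.02, log axis) in every library of uncloned organoids in DM, in EM and in the gland, with dots for lines 6, 7 and 8 from left to right and bars for the mean. Acta2, Actg2 and Mylk overlap between DM and the gland, Myh11 stays below 0.3 CPM in both media, and Tpm1, Tpm2 and Smtn are lowest in the gland.

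Acta2, the smooth muscle alpha-actin that marks myoepithelial cells in most glands (chr19:34241090-34255590, minus strand), stood at 81.8, 85.8 and 186 CPM in DM lines 6, 7 and 8, against 6.19, 5.78 and 5.26 CPM in EM. Every DM culture exceeded every EM culture, and line 8 was the highest in DM. Its log2 fold change was 4.36 ± 0.30 (SE, adjusted p = 6.39e-06), a 20.5-fold rise. Actg2, the smooth muscle gamma-actin (chr6:83512905-83536265, minus strand), stood at 2.15, 2.54 and 3.37 CPM in DM, against 0.125, 0.146 and 0.124 CPM in EM. Its EM values are 3 or 4 counts a library, and the log2 fold change was 4.28 ± 0.35 (adjusted p = 1.52e-05).

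The proportion of the actins was compared within libraries. Actg2 counts were 1.81% to 2.96% of Acta2 counts in DM, 2.01% to 2.53% in EM and 1.69% to 2.55% in the gland. The log2 ratio of the counts, with 0.5 added to each, averaged -5.36 in DM and -5.25 in EM, a difference of -0.11 (exact permutation test, two-sided, p = 0.8, smallest possible 0.1). It differed from the gland by 0.23 for DM (exact p = 0.4) and by 0.34 for EM (exact p = 0.2), with means of -5.36, -5.25 and -5.59 in DM, EM and gland. With 3 libraries a group the test cannot reach 0.05, so these values do not show the ratios to be equal.

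Mylk, the myosin light chain kinase that switches contraction on (chr16:34745210-35002420, plus strand), changed most among the members. It stood at 50.3, 58.4 and 34.3 CPM in DM lines 6, 7 and 8, against 0.54, 0.731 and 0.373 CPM in EM. All DM values lay far above all EM values. The log2 fold change was 6.41 ± 0.28 (adjusted p = 4.88e-07), or 85-fold. Mylk counts include every transcript of the gene, from the long non-muscle kinase to the kinase-free protein telokin, and these were not separated here.

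Myl9, the regulatory light chain that the kinase phosphorylates (chr2:156775420-156781658, plus strand), stood at 5.95, 8 and 17.3 CPM in DM, against 0.913, 1.46 and 0.414 CPM in EM. The groups were apart, and line 8 was the lowest in EM and the highest in DM. Its log2 fold change was 3.46 ± 0.45 (adjusted p = 0.000238). Myh11, the smooth muscle myosin heavy chain and the motor of the filament (chr16:14194535-14291372, minus strand), did not follow. It had 0, 4 and 7 counts in the DM libraries, against 1, 7 and 3 in EM, values that overlap fully. Its log2 fold change was 0.09 ± 0.72 (adjusted p = 0.953). Dropping single libraries moved it between -0.69 and 0.84.

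Tagln, or SM22, an actin-binding protein of smooth muscle (chr9:45929619-45936058, minus strand), stood at 2.56, 5.38 and 5.31 CPM in DM, against 0.249, 0.183 and 0.248 CPM in EM. DM and EM were apart, with a log2 fold change of 4.27 ± 0.39 (adjusted p = 2.62e-05). A gene on the opposite strand, Gm48529, covers 62.4% of the exon bases of Tagln in GENCODE M21. It is listed in the clone table but not in the uncloned one, and the strand setting of the counting is not given, so Tagln levels may be counted differently in the 2 tables. Cnn1, or calponin 1, which binds actin and slows the myosin (chr9:22099216-22109630, plus strand), had 1, 6 and 18 counts in DM, against 2, 0 and 0 in EM. DM line 6 did not exceed EM line 6. Pooled, 25 against 2 counts gave a scaled ratio of 13.2 (95% interval 3.67 to 109, counting error of the smaller count only, as in all such intervals below). The log2 fold change of 3.42 ± 1.02 passed the test (adjusted p = 0.0269). It was lost without EM line 7 (adjusted p = 0.0925), EM line 8 (0.0845) or DM line 8 (0.0938). Leaving out single libraries moved the log2 fold change between 2.25, without DM line 8, and 5.65, without EM line 6.

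The tropomyosins and smoothelin began from a high level in EM. Tpm1, an alpha-tropomyosin with 21 annotated transcripts (chr9:67022590-67049406, minus strand), stood at 810, 843 and 674 CPM in DM, against 473, 382 and 410 CPM in EM. Tpm2, beta-tropomyosin (chr4:43514711-43523765, minus strand), stood at 252, 291 and 262 CPM in DM, against 179, 166 and 184 CPM in EM. Smtn, smoothelin (chr11:3517523-3540612, minus strand), stood at 109, 146 and 101 CPM in DM, against 62.8, 51.7 and 72.2 CPM in EM. For all 3, every DM culture exceeded every EM culture. The log2 fold changes were 0.88 ± 0.13 for Tpm1 (adjusted p = 0.000441), 0.60 ± 0.08 for Tpm2 (0.000357) and 0.93 ± 0.16 for Smtn (0.00169). Tropomyosin genes also make non-muscle forms in most cells, which gene counts do not separate.

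Within each line, the size of the rise differed between members. On log2(CPM + 0.5), Acta2 rose by 3.62, 3.78 and 5.02 in lines 6, 7 and 8, and Myl9 by 2.19, 2.11 and 4.28. Line 8 thus gave the largest rise of both. For Mylk the rises were 5.61, 5.58 and 5.32 in lines 6, 7 and 8, so line 8 was not the largest there. Smtn gave 0.785, 1.49 and 0.474, with line 7 the largest.

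Several other filament genes also rose, where 17.2% of all genes tested were called higher in DM and 13.2% lower. Of 20 tested from a list of further smooth muscle filament and anchoring genes, 11 rose in DM and 1 fell, with a median log2 fold change of 0.80. Cald1, or caldesmon, rose by 2.55 ± 0.12 (adjusted p = 1.08e-06). Pdlim7, a scaffold of actin filaments, rose by 2.30 ± 0.17 (9.61e-06), and Tns1, tensin 1, which links actin to integrins, by 2.25 ± 0.17 (1.14e-05). Des, the muscle intermediate filament desmin, had 0 counts in all 6 organoid libraries, against 5, 6 and 12 counts in the gland. Of 14 tested paralogs used outside smooth muscle, 8 rose and 2 fell, with a median of 0.54: Cnn2, calponin 2, rose by 0.65 ± 0.08 (adjusted p = 0.000187) Tpm4 by 0.77 ± 0.11 (0.000382), and Acta1, the skeletal actin, by 1.92 ± 0.61 (0.0346). Cytoplasmic beta-actin, Actb, rose by 0.79 ± 0.15 (0.00295), while Actg1 gave 0.12 ± 0.18 (0.65).

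Of 11 tested regulators of the serum response factor and myocardin network, 2 rose and none fell, a share near the 17.2% of all genes called higher. Srf stood at 32.6, 35.2 and 33.8 CPM in DM, against 39.1, 33.3 and 37.2 CPM in EM, with a log2 fold change of -0.11 ± 0.09 (adjusted p = 0.401). Mrtfa, a partner of Srf that senses actin, gave -0.10 ± 0.10 (0.497). Myocd, or myocardin, had 0 counts in all 9 libraries of the table, including the gland. The 2 that rose were Id1, an inhibitor of helix-loop-helix factors, by 2.75 ± 0.31 (0.000109), and Klf4, which in vascular smooth muscle represses contractile genes, by 0.73 ± 0.11 (0.000466). TGF-beta, a signal known to induce contractile genes in smooth muscle, was read through a separate list of response genes: 11 of 12 rose and 1 fell. Among them Tgfbi rose by 3.00 ± 0.20 (5.59e-06) and Pmepa1 by 4.41 ± 0.32 (8.32e-06). The part of TGF-beta in the members' rise was not tested.

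Of 17 tested genes that control the phosphorylation of myosin, 3 rose and 5 fell, with a median of -0.12, where 17.2% of all genes were called higher and 13.2% lower. Ppp1r12b, a targeting subunit of myosin phosphatase, rose by 1.2 ± 0.13 (adjusted p = 7.13e-05). Its relative Ppp1r12c fell by 0.63 ± 0.09 (0.000524). Of 6 tested receptors that can trigger contraction, 1 rose and 1 fell. Ednra, an endothelin receptor, rose by 1.15 ± 0.26 (0.00715) and P2ry2, an ATP receptor, fell by 1.74 ± 0.23 (0.000279). Oxtr, the oxytocin receptor that drives milk ejection, had 0, 0 and 2 counts in DM, 0 in every EM library, and 0, 2 and 4 in the gland. Adra1a, an adrenergic receptor, had 0 counts in DM and EM, against 117, 116 and 138 counts in the gland.

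Markers of the cell types that could carry these genes were read beside them, where 17.2% of all genes tested were called higher in DM and 13.2% lower. In the basal and myoepithelial list 5 of 13 rose and 3 fell, with Krt14 up by 1.64 ± 0.15 (adjusted p = 2.59e-05), Lgr6 up by 4.78 ± 0.49 (5.33e-05) and Jag2 down by 0.89 ± 0.09 (5.45e-05). Trp63, which defines the basal state, gave -0.0013 ± 0.14 (1). Their summed level was 6310 to 8170 CPM in DM, 4430 to 4740 CPM in EM and 254 to 305 CPM in the gland. In the list of vascular smooth muscle and pericyte markers, 4 of 8 tested rose and none fell. Rgs5 stood at 35.6, 40.4 and 21.1 CPM in DM, against 0.125, 0.183 and 0.497 CPM in EM, and Rgs4 and Mcam rose by 4.53 ± 0.26 (2.5e-06) and 1.59 ± 0.13 (1.3e-05). The summed level of the 12 was 249 to 311 CPM in DM, 133 to 156 CPM in EM and 39.8 to 44.3 CPM in the gland. Pdgfrb, the receptor that defines pericytes, had 0 counts in all DM and EM libraries, against 37, 45 and 60 counts in the gland. In DM, Cspg4, Kcnj8, Higd1b, Cox4i2 and Olfr78 were also at 0.

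The collagens that define fibroblasts, and the endothelial markers, were near 0 in the organoids. Col1a2 and Col3a1 had 0 counts in DM and EM, against 687, 686 and 825 counts of Col1a2 in the gland. In the fibroblast list 5 of 14 rose and 1 fell, led by Postn (periostin), Vim (vimentin) and Thy1. Their summed level was 97.6 to 199 CPM in DM, 138 to 151 CPM in EM and 832 to 1010 CPM in the gland, with 5 of 14 at 0 in DM and 6 of 14 in EM. Against the gland, 12 of 14 were called lower in DM and 1 higher, with a median log2 fold change of -8.79. In EM 13 were called lower and 1 higher, with a median of -10.5. Of all genes, 37.4% were called lower than the gland in either medium. The sum in the organoids thus does not stand for most of the list. Col1a1 had 18 counts over the DM libraries and 3 over the EM libraries. Endothelial markers summed to 0.513 to 0.692 CPM in DM, 0.877 to 1.62 CPM in EM and 61.3 to 75.0 CPM in the gland, with 1 of 7 tested higher in DM and 1 lower. Luminal markers rose in 5 and fell in 3 of 11, with a median log2 fold change of 0.27. Acinar markers rose in 3 of 7 and fell in 0, with a median of -0.16. Of all genes tested, 17.2% were called higher in DM and 13.2% lower. The part of other cell types in the members' rise was not tested.

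The uncloned cultures were next set against the gland itself. In EM the smooth muscle genes were at a small fraction of their gland level, and the tropomyosins and Smtn were above it. All 10 members differed: 3 were higher in EM and 7 lower, where 37.4% of genes were called higher, 37.4% lower and 74.8% in either direction. Myh11 had 1, 7 and 3 counts in EM, against 409, 469 and 579 in the gland, a log2 fold change of -8.99 ± 0.33 (adjusted p = 1e-09). For Cnn1, 2 counts in EM stood against 413 in the gland, a scaled ratio of 527 (95% interval 146 to 4350, gland over EM, counting error only). The other log2 fold changes were -7.36 for Tagln, -6.43 for Mylk, -5.67 for Myl9, -4.30 for Acta2 and -4.05 for Actg2, with adjusted p between 3.75e-09 and 2.41e-06. Tpm1 (2.22), Tpm2 (2.30) and Smtn (1.67) were higher, with adjusted p of 4.66e-08, 1.99e-09 and 8.55e-06.

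In DM some members were not called different from the gland and others were. Of the 10, 3 were higher in DM than in the gland, 4 were lower and 3 were not called, where 38.1% of genes were called higher, 37.4% lower and 75.5% in either direction. Acta2 stood at 81.8, 85.8 and 186 CPM in DM and at 112, 119 and 110 CPM in the gland, with a log2 fold change of 0.06 ± 0.26 (adjusted p = 0.84). Actg2 stood at 2.15, 2.54 and 3.37 CPM in DM and at 2.84, 2.01 and 2.06 CPM in the gland (0.23 ± 0.29, adjusted p = 0.471). Mylk stood at 50.3, 58.4 and 34.3 CPM in DM and at 40.5, 51 and 53.6 CPM in the gland (-0.02 ± 0.19, adjusted p = 0.913). These 3 overlapped between the groups, which does not show their levels to be equal. Without DM line 8, Acta2 was lower in DM, at -0.43 (adjusted p = 0.000623).

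Myh11 and Cnn1 were the members farthest below the gland in DM. Myh11 gave -8.91 ± 0.33 (adjusted p = 9.72e-10), and Cnn1, at 0.0513, 0.231 and 0.713 CPM in DM and 21.5, 23.3 and 21.1 CPM in the gland, gave -5.95 ± 0.48 (5.43e-07). Tagln stood at 2.56, 5.38 and 5.31 CPM in DM and 47.8, 31.4 and 35.4 CPM in the gland (-3.09 ± 0.26, 6.74e-07). Myl9 stood at 5.95, 8 and 17.3 CPM in DM and 45.8, 54 and 45.5 CPM in the gland (-2.21 ± 0.36, 0.000151). All 4 were below the gland in every DM culture. Tpm1, Tpm2 and Smtn were above it, by 3.10 ± 0.14 (3.81e-09), 2.90 ± 0.09 (3.72e-10) and 2.60 ± 0.19 (2.18e-07).

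The scaling of the gland libraries bears on these calls. With total counts in place of TMM, the median of all genes moved by 1.97 between DM and the gland and by 2.06 between EM and the gland. DM then gave 6 members higher and 3 lower than the gland: Acta2 (2.04), Actg2 (2.2) and Mylk (1.95) became higher, and Myl9 (-0.23, adjusted p = 0.546) was no longer called. Under that scaling the median over all genes tested was 1.99, so Acta2, Actg2 and Mylk lay near the median gene. A comparison within a library does not depend on the scaling. Per kilobase of exon, Myh11 stood at 0, 0.0202 and 0.0365 CPM per kb in DM lines 6, 7 and 8, beside 4.46, 5.19 and 3.05 CPM per kb of Mylk. In the gland it stood at 9.56, 11.3 and 9.8 CPM per kb, beside 3.59, 4.53 and 4.76 CPM per kb of Mylk. By this measure Myh11 exceeded Mylk in every gland library and was below it in every DM library. The measure divides by all annotated exon bases of a gene, 11.263 kb for the 8 transcripts of Mylk. It understates a gene whose shorter transcripts prevail, and transcripts were not separated here. Vascular smooth muscle in the gland also uses Myh11 and Cnn1. The gland's markers of that cell type are given above, and their part in the gland level was not tested.

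**Figure D2:**
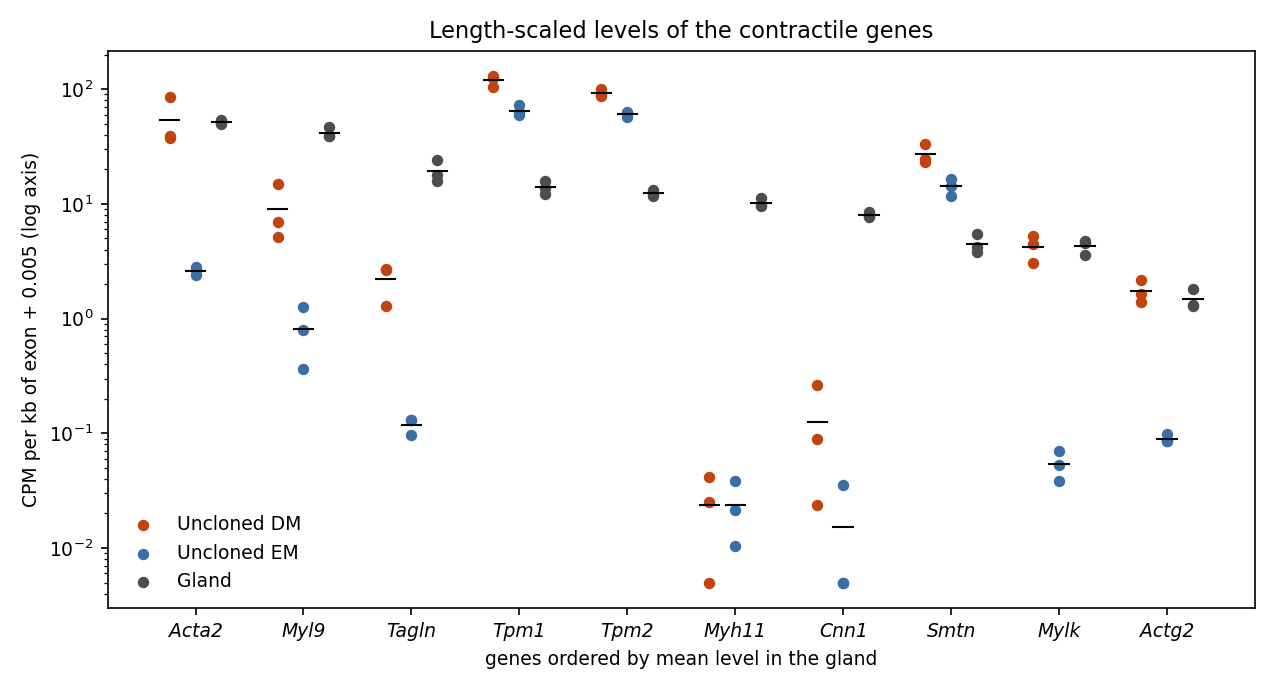
Level of each contractile gene per kilobase of exon (CPM per kb plus 0.005, log axis) in uncloned organoids in DM, in EM and in the gland, with a dot per library, a bar for the mean and genes ordered by their gland mean. Acta2 and Myl9 lead in the gland at 51.6 and 41.7 CPM per kb, while Tpm1 and Tpm2 lead in both media.

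Per kilobase of exon, the order of the members differed between organoids and gland. In DM the mean level was 120 CPM per kb for Tpm1, 92.1 for Tpm2, 53.7 for Acta2, 27.0 for Smtn, 8.95 for Myl9, 4.23 for Mylk, 2.22 for Tagln and 1.72 for Actg2, with Cnn1 and Myh11 at 0.121 and 0.0189. In EM it was 65.1 CPM per kb for Tpm1, 60.6 for Tpm2, 14.2 for Smtn and 2.61 for Acta2, and below 1 for the rest. The gland had 51.6 CPM per kb for Acta2, 41.7 for Myl9, 19.2 for Tagln, 13.9 for Tpm1, 12.3 for Tpm2, 10.2 for Myh11, 8.03 for Cnn1, 4.47 for Smtn, 4.3 for Mylk and 1.48 for Actg2. Neighbours in this order whose libraries overlapped were Myl9 with Mylk, Tagln with Actg2 and Cnn1 with Myh11 in DM. In EM they were Tpm1 with Tpm2, Tagln with Actg2, Mylk with Myh11 and Myh11 with Cnn1. In the gland they were Tagln with Tpm1, Tpm1 with Tpm2 and Smtn with Mylk. In the gland the members thus lay within a narrower range than in DM. The smooth muscle forms of actin, light chain, motor and calponin were all present in the gland, whereas Myh11 and Cnn1 had at most 7 and 18 counts in an uncloned DM library. Paralogs used outside smooth muscle were not low in DM. All 14 tested were called higher in DM than in the gland, where 38.1% of all genes were. In EM 13 of the 14 were called higher than in the gland, where 37.4% of all genes were, so this held in both media. The non-muscle myosin Myh9 averaged 1310 CPM in DM and 173 CPM in the gland, and the calponin Cnn3 614 and 257 CPM.

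Clones gave a second set of cultures for the effect of DM. The rise of Mylk, Tpm1 and Smtn was called in clones of both labels, and that of Acta2 in the KO-labelled clones. In KO-labelled clones 4 of 9 members tested were higher in DM and none was lower, where 4.94% of 14282 genes were called higher, 3.41% lower and 8.35% in either direction. In WT clones 3 of 9 were higher and none was lower, where 9.61% of genes were called higher, 6.13% lower and 15.7% in either direction. With the clone as a block, 5 of 9 were higher in KO-labelled clones, where 16.4% of all genes were called in either direction, and 5 of 9 in WT clones, where 25.6% were. Cnn1 had too few counts to be tested in the clones. Medians of the members' log2 fold changes were 1.71 in KO-labelled and 1.44 in WT clones, against -0.0023 and -0.0002 over all genes.

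**Figure D3:**
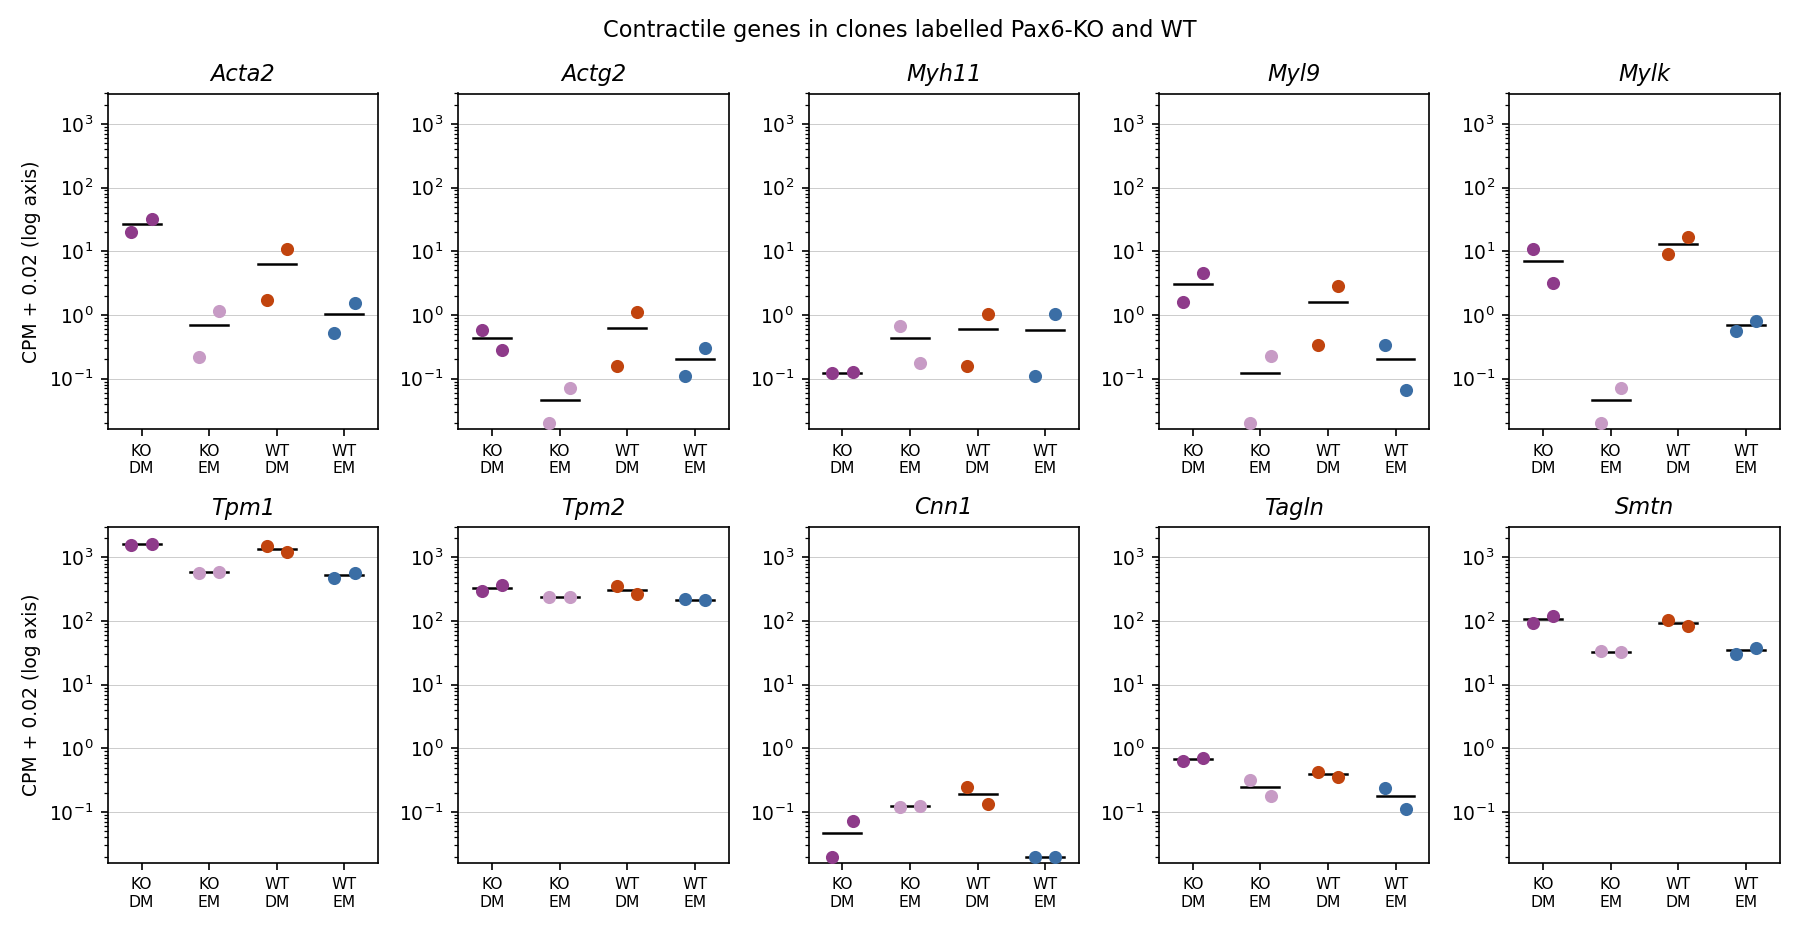
Level of each contractile gene (CPM plus 0.02, log axis) in clones labelled KO in DM and in EM and in WT clones in DM and in EM, with clone 1 on the left of each pair and bars for the mean. Mylk is higher in DM than in EM in both labels, and Acta2, Myl9 and Actg2 differ widely between the WT clones in DM.

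Mylk stood at 10.7 and 3.13 CPM in KO DM clones 1 and 2, against 0 and 0.0522 CPM in KO EM. Its 268 counts in KO DM against 1 in KO EM gave a scaled ratio of 273 (95% interval 48.9 to 10800, counting error only), with an adjusted p of 0.0108. In WT clones Mylk stood at 9.06 and 16.8 CPM in DM, against 0.535 and 0.797 CPM in EM, with a log2 fold change of 4.27 ± 0.73 (adjusted p = 0.0116). Both clones of each label rose. Leaving out a single EM clone ended the call: the adjusted p was 0.0767 and 0.0751 without KO EM clone 1 and clone 2, and 0.0777 and 0.0528 without WT EM clone 1 and clone 2. With single libraries left out, the log2 fold change in KO-labelled clones lay between 6.62 and 10.1.

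Acta2 stood at 20.1 and 32.6 CPM in KO DM, against 0.202 and 1.15 CPM in KO EM, with a log2 fold change of 5.28 ± 1.12 (adjusted p = 0.0362). The call was lost without any 1 of the 4 KO libraries, with adjusted p of 0.165 and 0.135 without KO EM clone 1 and clone 2 and 0.117 and 0.126 without KO DM clone 1 and clone 2. The log2 fold change then lay between 4.51 and 6.98. In WT clones Acta2 stood at 1.69 and 10.8 CPM in DM, against 0.491 and 1.5 CPM in EM. The WT clones were far apart in DM, and the log2 fold change of 2.63 ± 1.02 was not called (adjusted p = 0.129). It rested on single clones: it was 0.77 without WT DM clone 2 (adjusted p = 0.62), 3.64 without WT EM clone 2 (0.185), and called at 3.43 without WT DM clone 1 (0.0494). With the clone as a block it was called at 2.48 (adjusted p = 0.00623).

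Tpm1 stood at 1590 and 1610 CPM in KO DM and 578 and 594 CPM in KO EM, a log2 fold change of 1.45 ± 0.16 (adjusted p = 0.00599). In WT it stood at 1530 and 1210 CPM in DM and 480 and 577 CPM in EM, a change of 1.37 ± 0.16 (0.00399). Smtn stood at 93.4 and 121 CPM in KO DM and 33.4 and 32.2 CPM in KO EM (1.71 ± 0.18, 0.0048), and at 103 and 84.7 CPM in WT DM and 30.7 and 38.4 CPM in WT EM (1.44 ± 0.18, 0.00436). All DM clones exceeded all EM clones for both genes. In KO-labelled clones the Tpm1 call was lost without EM clone 1 (adjusted p = 0.0571) or EM clone 2 (0.0598), and the Smtn call without EM clone 2 (0.0565). Calls over all genes also fell there without EM clone 2, so that loss is not particular to the members. With single libraries left out, the log2 fold change in KO-labelled clones lay between 1.43 and 1.47 for Tpm1. For Smtn it lay between 1.51 and 1.88. Tpm2 gave 0.47 ± 0.17 in KO-labelled (adjusted p = 0.135) and 0.53 ± 0.17 in WT clones (0.0736), with every DM value above every EM value. In WT clones Tpm2 was 0.30 without DM clone 1 (adjusted p = 0.249), and it was called without DM clone 2 (0.73, adjusted p = 0.0275) and with the clone as a block (0.52, adjusted p = 0.0312).

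In DM, Myl9 was higher in clone 2 than in clone 1 of both labels, as Acta2 was. It stood at 1.59 and 4.46 CPM in KO DM and 0 and 0.209 CPM in KO EM, with a log2 fold change of 4.79 ± 1.5 (adjusted p = 0.101). With the clone as a block it was called at 4.87 (adjusted p = 0.0316). In WT it stood at 0.32 and 2.85 CPM in DM and 0.312 and 0.0469 CPM in EM (3.07 ± 1.37, adjusted p = 0.181), so WT clone 1 had 7 counts in both media. Actg2 had 11 and 5 counts in KO DM against 0 and 1 in KO EM (adjusted p = 0.196), and 3 and 19 in WT DM against 2 and 6 in WT EM (0.366). Tagln had 12 and 13 counts in KO DM against 6 and 3 in KO EM (0.207), and 9 and 6 in WT DM against 5 and 2 in WT EM (0.268).

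Myh11 stayed near 0 in the clones as well. It had 2 and 2 counts in KO DM, 13 and 3 in KO EM, 3 and 18 in WT DM, and 2 and 22 in WT EM. WT clone 2 was the highest WT clone in both media. Log2 fold changes, DM over EM, were -1.90 ± 1.53 in KO-labelled clones (adjusted p = 0.513) and 0.03 ± 1.24 in WT clones (0.992). Cnn1 had 0 and 1 counts in KO DM, 2 and 2 in KO EM, 5 and 2 in WT DM, and 0 in both WT EM libraries.

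**Figure D4:**
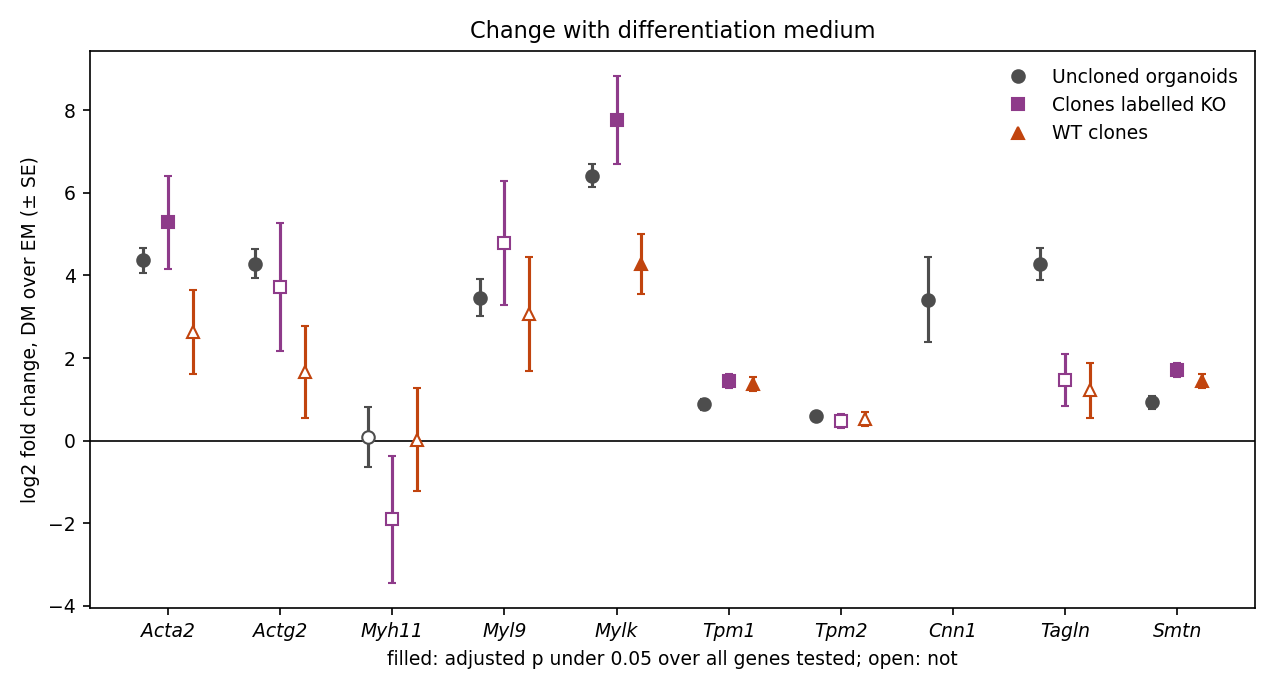
Log2 fold change of each contractile gene, DM over EM, with its standard error, in uncloned organoids (circles), clones labelled KO (squares) and WT clones (triangles), filled where the adjusted p was under 0.05. Mylk is the largest called change in each kind of culture, at 6.41, 7.76 and 4.27, and Myh11 lies near or below 0. Cnn1 was not tested in the clones.

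Companion genes in the clones changed as follows. Over all genes tested, 4.94% were called higher in DM and 3.41% lower in KO-labelled clones, against 9.61% and 6.13% in WT clones. Of 16 tested filament and anchoring genes, 9 rose and 1 fell in KO-labelled clones, and 9 rose in WT clones. Pdlim7 rose by 2.14 ± 0.12 in KO-labelled clones (adjusted p = 0.0016) and by 2.42 ± 0.12 in WT clones (0.000421). Cald1 rose by 3.05 ± 0.52 (0.0202) and 3.38 ± 0.53 (0.00905). None of 11 tested regulators was called in either label by edgeR. TGF-beta response genes rose in 7 of 12 in KO-labelled clones and 8 of 12 in WT clones, and none fell. Among basal markers 1 rose and 1 fell of 13 in KO-labelled clones, against 2 and 1 in WT clones. The pericyte markers summed to 237 to 569 CPM in KO DM, 140 to 165 CPM in KO EM, 173 to 320 CPM in WT DM and 178 to 257 CPM in WT EM, and 1 of 6 tested was called higher in DM in KO-labelled clones and 2 of 6 in WT clones. Of these sums, Notch3 held 56.8 and 56.2 CPM in KO DM, 56.1 and 74.6 CPM in KO EM, 68.9 and 116 CPM in WT DM, and 131 CPM in both WT EM clones. Pdgfrb had 1 count in KO EM and 0 in the other clones. Rgs5 stood at 83.9 and 9.56 CPM in KO DM, 2.17 and 0.313 CPM in KO EM, 9.29 and 26.1 CPM in WT DM, and 0.134 and 0.563 CPM in WT EM. The fibroblast markers summed to 114 to 120 CPM in KO DM, 105 to 157 CPM in KO EM, 80.3 to 251 CPM in WT DM and 244 to 280 CPM in WT EM, and Col1a2 was at 0 in every clone.

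Between the genotype labels, no member was called in either medium. In DM, 2.39% of genes were called higher in KO-labelled than in WT clones, 3.08% lower and 5.47% in either direction. In EM, 5.38% were called higher, 4.41% lower and 9.8% in either direction. In DM no member had an unadjusted p under 0.05 by edgeR, and DESeq2 called none. Acta2 came nearest, at 20.1 and 32.6 CPM in KO DM against 1.69 and 10.8 CPM in WT DM (2.09 ± 0.93, adjusted p = 0.225), with both KO-labelled clones above both WT clones. In EM 1 member had an unadjusted p under 0.05, and DESeq2 called 1, in both cases Mylk. Its 1 count in KO EM against 29 in WT EM gave a scaled ratio of 25.8 (95% interval 4.64 to 1020, WT over KO, counting error only), with an adjusted p of 0.0654 by edgeR and 0.025 by DESeq2. It was called without KO DM clone 1 (0.0438) or KO DM clone 2 (0.0431), libraries that enter only through the shared spread.

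None of the remaining members was called between the labels. In DM their log2 differences, KO minus WT, ran from -2.37 for Myh11 to 0.95 for Myl9, with adjusted p of at least 0.378. In EM they ran from -2.58 for Actg2 to 0.52 for Tagln, with adjusted p of at least 0.367. Tpm1 gave 0.23 ± 0.16 in DM (adjusted p = 0.434) and 0.15 ± 0.16 in EM (0.6), and Smtn 0.19 ± 0.17 (0.545) and -0.08 ± 0.18 (0.821). The effect of DM itself was not shown to differ between the labels: for the interaction edgeR called no member and none of 14282 genes, or 0%. At an unadjusted p under 0.05, 1126 genes and 1 member passed, and DESeq2 called 178 genes. Mylk gave an interaction of 3.50 ± 1.42 (adjusted p = 0.608) and Acta2 of 2.65 ± 1.45 (0.743). With 2 clones a label, these tests had 4 residual degrees of freedom.

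**Figure D5:**
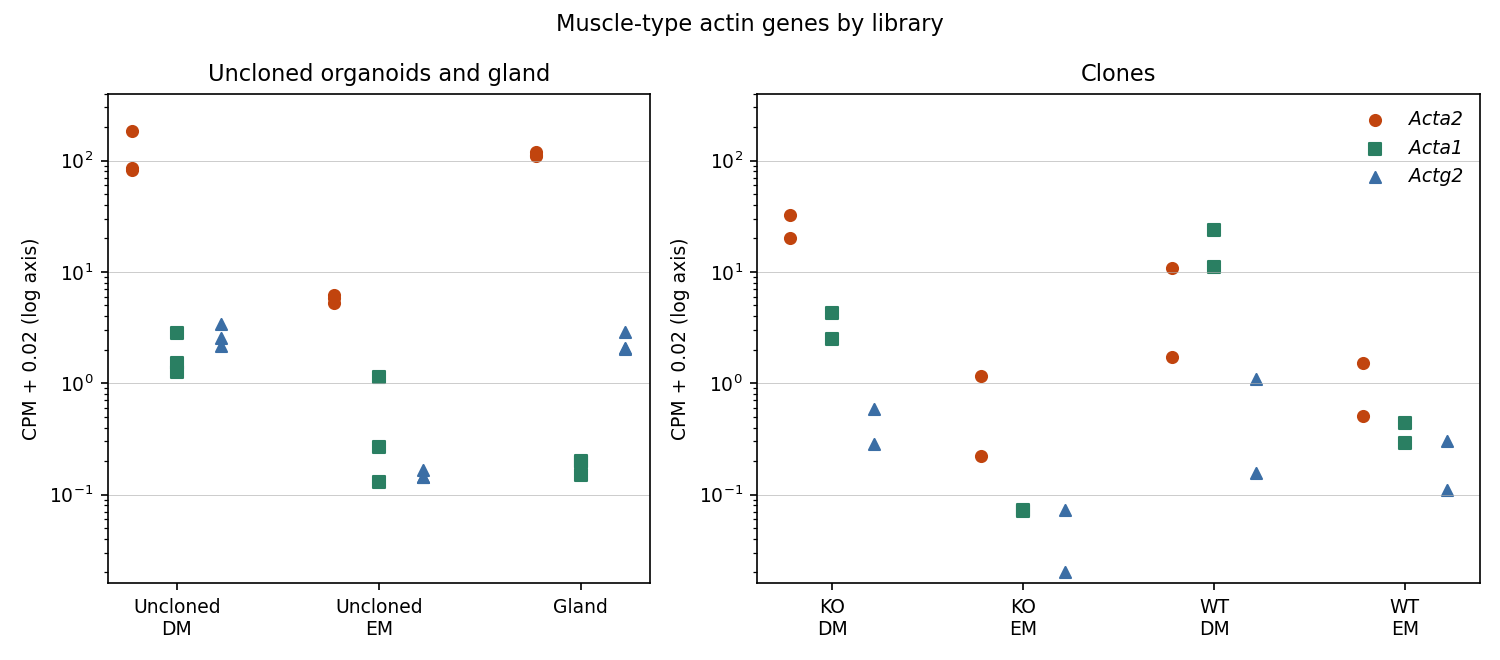
Levels of Acta2, Acta1 and Actg2 (CPM plus 0.02, log axis) in each library, with uncloned organoids and gland on the left and clones on the right. Acta1 is highest in WT clones in DM, at 24 and 11 CPM, while Acta2 is at 1.69 and 10.8 CPM there and at 20.1 and 32.6 CPM in KO-labelled clones in DM.

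A skeletal muscle relative of the actins was called different between the labels in DM. Acta1, the skeletal alpha-actin, stood at 2.46 and 4.25 CPM in KO DM against 24 and 11 CPM in WT DM, a log2 fold change of -2.38 ± 0.46 (adjusted p = 0.0361). Both KO-labelled clones lay below both WT clones. The call rests on 2 clones a label. With only the libraries compared, the genes called between the labels in DM numbered 110, against 781. Whether Acta1 was among the 110 is not given here. Acta1 rose in DM in clones of both labels. In KO-labelled clones 128 counts in DM stood against 2 in EM, a scaled ratio of 65.1 (95% interval 18 to 538, counting error only, adjusted p = 0.00736). In WT clones the log2 fold change was 5.64 ± 0.56 (0.00232), and in uncloned cultures 1.92 ± 0.61 (0.0346). Acta1 counts were 0.122 and 0.131 times Acta2 counts in KO DM, against 14.2 and 1.02 times in WT DM. They were 0.0143 to 0.0182 times Acta2 counts in uncloned DM, and 0.00117 to 0.00159 times in the gland. No stretch of 50 bases is shared between the annotated transcripts of Acta2 and Acta1, or of Acta2 and Actg2. Of the 5 skeletal muscle markers tested in the clones, Acta1 was lower in KO DM than in WT DM and none was higher.

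Ratios of Actg2 to Acta2 rest on few counts in the clones. Actg2 was 2.81% and 0.816% of Acta2 counts in KO DM, against 8.11% and 10.1% in WT DM. The difference of the mean log2 ratios, KO minus WT, was -2.60 in DM (-5.95 and -3.35), and the exact permutation test gave p = 0.33, the smallest that 2 against 2 libraries allow. In EM it was -1.28 (-3.54 and -2.26, exact p = 0.33). DM minus EM was -2.41 in KO-labelled and -1.09 in WT clones, each again with an exact p of 0.33.

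The 6 genes whose log2 CPM followed the mean of the members most closely in both tables were Postn, Ldlrad4, Tcim, Atp8b2, Ggt5 and Sulf1. The measure is Pearson's r over the 9 libraries of the uncloned table and over the 8 clone libraries, and the smaller is given. It was 0.97 for Postn, a secreted matricellular protein, 0.943 for Ldlrad4, 0.941 for Tcim, 0.938 for Atp8b2, 0.932 for Ggt5 and 0.926 for Sulf1, a sulfatase that edits heparan sulfate outside the cell. These were picked for their likeness, and the libraries share groups and lines. Postn stood at 22.3, 35.4 and 61.8 CPM in uncloned DM, 0.166, 0.219 and 0.0828 CPM in uncloned EM and 53.4, 75.5 and 55.3 CPM in the gland. Its WT clones in DM were at 3.29 and 111 CPM, clone 1 low and clone 2 high as for Acta2 and Myl9, and its KO-labelled clones in DM at 50.6 and 25.0 CPM. Tcim ran from 153 to 248 CPM in uncloned DM, 38.1 to 56.1 CPM in uncloned EM and 189 to 267 CPM in the gland.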

How the data were processed

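Polyadenylated RNA libraries were made with a stranded kit, per the labels' protocols. Per the submitters' processing notes, the authors used STAR, featureCounts and GRCm38, while the sources used here do not give versions, annotation release or strand setting. The deposited values are whole-number counts per gene. The members and gene lists were chosen with earlier results of these data known.

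Each table was fitted alone in R 4.3.3 with edgeR 4.0.16: filterByExpr (13713 and 14282 genes kept in the uncloned and clone tables), TMM scaling, a mean per group and quasi-likelihood tests, with 6 and 4 residual degrees of freedom; the biological coefficient of variation was 0.138 in the uncloned and 0.234 in the clone table. Calls were made where p, adjusted by Benjamini-Hochberg across every gene tested, was under 0.05. SEs were derived from each fold change and its F statistic. Where a group had 1 to 3 counts, the ratio of summed counts has a 95% interval. It uses exact limits for the counting error of that low count only and takes the level of the other group as fixed, so it is too narrow for the ratio. Annotation came from GENCODE M21 (36429 and 55227 gene IDs matched), and promoter windows from RefSeq. Named genes were all 10 members, up to 3 called genes of smallest p per list, and genes that define a list. Some genes in the sentences on cell types, receptors, actins and counts at 0 were named after their values were seen.

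The labels give the same line in DM, EM and gland, and the same clone in DM and EM, which the block alternative uses. Deviations from group means correlated at 0.181, 0.122 and 0.0933 between DM and EM of lines 6, 7 and 8, and at 0.603 (WT) and 0.507 (KO) between media of a clone. Between the gland and the organoids of a line, the correlations lay between -0.0732 and 0.0849. Alternatives were DESeq2 1.42.0 or its size factors, total-count scaling, no filter, only the libraries compared, each library left out, and the block. All columns of values were used. The fits were tested on simulated data.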

Additional observations from a re-analysis of the deposited data

Results flagged for a closer look

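Cnn1, calponin 1, moved in opposite directions with DM in the 2 labels: both KO-labelled clones were lower in DM than in EM, and both WT clones were higher. It had 0 and 1 counts in KO DM against 2 and 2 in KO EM, and 5 and 2 counts in WT DM against 0 and 0 in WT EM. On log2(CPM + 0.5) the mean change of the WT clones exceeded that of the KO-labelled clones by 0.617. The difference was not tested, since the gene fell under the count filter in the clone table, and it rests on 12 counts in all.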

How the results depend on the processing

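Among uncloned cultures, the Actg2 to Acta2 log2 ratio (DM minus EM, -0.113) turned to 0.0747 with no prior count, and lay between -0.259 and 0.0974 with single libraries left out. Myh11 in DM over EM lay between -0.686 and 0.844. In DM over gland, total-count scaling gave 6 members higher in place of 3, where the median of all genes was 1.99. There Acta2 was -0.0146 with the line as a replicate block and -0.427 to 0.291 with libraries left out. Mylk was 1.95 with total-count scaling, 0.0171 with DESeq2, 0.0825 without the count filter and -0.191 to 0.172 with libraries left out.

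In KO-labelled clones, the members higher in DM numbered 7 without the filter and 0 to 4 with libraries left out, against 4. Calls over all genes (1193) became 1863 with DESeq2, 2572 without the filter, 2338 with the clone as a replicate block and 82 to 1511 with libraries left out. In WT clones, the members higher in DM numbered 6 without the filter and 5 with the block, against 3. Calls over all genes (2247) became 3497 without the filter, 924 with only the libraries compared, 3650 with the block and 789 to 1956 with libraries left out. With libraries left out, Actg2 in WT clones lay between -0.407 and 2.66 and Myh11 between -1.97 and 2.59, and Myh11 was -0.0481 with total-count scaling.

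KO minus WT in DM gave 1 member higher without the filter, against 0. All-gene calls (781) became 1560 with DESeq2, 2547 without the filter, 110 with only the libraries compared and 0 to 630 with libraries left out. Actg2 lay between -1.37 and 1.56, Tpm2 between -0.115 and 0.308, and Smtn between -0.00889 and 0.366. KO minus WT in EM gave 1 member lower with DESeq2, 1 without the filter and 0 to 1 with libraries left out, against 0. All-gene calls (1399) became 2947 without the filter and 175 to 1641 with libraries left out. Acta2 lay between -2.27 and 0.447, Myh11 between -1.79 and 2.12, Tagln between -0.0209 and 1.24, Myl9 between -4.93 and 1.04, and Smtn between -0.224 and 0.0946.

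The interaction of label and medium gave 2 members without the filter, against 0, and 178 genes with DESeq2, 657 without the filter, 70 with the block and 0 to 14 with libraries left out, against 0. Myh11 lay between -4.49 and 0.0665, Tagln between -0.466 and 0.8, Tpm1 between -0.087 and 0.256, Tpm2 between -0.258 and 0.165, and Myl9 between -0.0939 and 5.87. The cause of these changes was not tested, except that leaving libraries out leaves fewer samples. No paired analysis was possible between the labels, because each clone carries 1 label. The other alternatives left 967 values of single members and 338 counts or comparisons in the same direction and on the same side of the threshold, or within 1.5 times the count. A group left with 1 library was assumed to vary like the others. Depth limits Myh11, Cnn1, Actg2 and Tagln in the organoids most, since several of their libraries held fewer than 10 counts.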
